A study of Rattus norvegicus with 12 samples.

Results

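Checkpoint and repair genes keep a cell's DNA intact, and their transcripts were followed here in cultured neonatal rat ventricular cardiomyocytes given forms of the transcription factor MEF2C. From a list of 57 genes of DNA damage signalling and repair, a gene was included when a probe set of the array carried its symbol alone, and the probe set with the highest mean over the 12 arrays stood for a gene with several. This gave 41 genes of the 14497 genes with such a probe set, and 38 of the 41 were bright enough to be tested among 10025 genes. The other 3 (Chek2, Palb2 and Fancc) lay below the brightness cutoff, and 16 listed symbols had no such probe set and were not analysed here under that symbol.

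Cultures from Wistar rats formed 4 groups of 3 arrays each: adenovirus carrying mef2Cγ+ (the γ+ group), adenovirus carrying mef2Cγ- (the γ- group), adenovirus carrying mef2Cγ+23/24 (the 23/24 group) and untreated cultures (control). MEF2C switches on muscle genes, and its γ segment, included or left out by splicing, is known as a repressor domain. The labels do not define the 23/24 variant, no virus without an insert was among these groups, and no single-gene probe set carried the symbol Mef2c, so the level of the delivered factor was not analysed here. Plating had lasted 44 h, followed by 24 h in serum-free medium. The labels call the arrays of a group biological replicates but name no separate isolations. Each p-value thus sets a difference of group means against the spread of these arrays within groups, whatever they share.

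A pair of kinases heads the signalling: ATM answers double-strand breaks and ATR, with its partner ATRIP, answers stalled replication forks, and both act through the effector kinases CHK2 and CHK1. Downstream, breaks are mended by homologous recombination, which needs BRCA1 and BRCA2 and works mainly while a replicated sister chromatid is present, or by end joining, which works throughout the cycle. Fanconi anaemia proteins clear cross-links, and the excision and mismatch pathways remove damaged or mispaired bases. Many of the fork and recombination genes are known to be transcribed mainly in proliferating cells through E2F factors, whereas heart muscle cells largely stop dividing soon after birth.

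Promoters of 5 of the genes are shown because the genes moved together and because E2F matches were more frequent in this set than in promoters at large. The sequences are from RefSeq on GRCr8 (250 bases before to 50 bases after the annotated start, read 5′ to 3′ along the gene), and 38 of the 41 genes had one. Ddias, the gene with the largest rise, is at chr1:156342820-156343119 (minus strand), with its CCAAT box, here on the opposite strand, in capitals. Clspn is at chr5:144134387-144134686 (plus strand), Timeless at chr7:1239200-1239499 (plus strand), Fancd2 at chr4:148234458-148234757 (plus strand) and Chek1 at chr8:44629794-44630093 (minus strand); they are the 4 most strongly raised genes that held an E2F match, which is in capitals.
Ddias: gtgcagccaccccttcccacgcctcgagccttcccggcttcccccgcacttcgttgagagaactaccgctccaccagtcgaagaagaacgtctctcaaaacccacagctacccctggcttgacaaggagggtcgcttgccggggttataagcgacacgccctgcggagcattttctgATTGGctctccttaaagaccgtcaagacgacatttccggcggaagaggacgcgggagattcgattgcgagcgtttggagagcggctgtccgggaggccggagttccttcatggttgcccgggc
Clspn: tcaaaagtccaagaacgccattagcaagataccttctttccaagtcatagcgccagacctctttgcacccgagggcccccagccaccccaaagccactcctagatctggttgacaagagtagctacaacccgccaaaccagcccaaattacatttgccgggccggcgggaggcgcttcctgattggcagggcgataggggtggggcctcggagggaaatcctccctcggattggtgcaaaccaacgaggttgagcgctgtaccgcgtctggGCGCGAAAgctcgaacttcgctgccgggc
Timeless: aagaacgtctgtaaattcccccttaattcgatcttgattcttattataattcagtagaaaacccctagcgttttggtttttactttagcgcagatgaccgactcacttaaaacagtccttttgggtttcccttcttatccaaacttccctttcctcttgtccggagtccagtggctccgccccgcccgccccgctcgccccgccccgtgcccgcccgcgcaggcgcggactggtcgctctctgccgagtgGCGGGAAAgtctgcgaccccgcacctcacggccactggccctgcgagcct
Fancd2: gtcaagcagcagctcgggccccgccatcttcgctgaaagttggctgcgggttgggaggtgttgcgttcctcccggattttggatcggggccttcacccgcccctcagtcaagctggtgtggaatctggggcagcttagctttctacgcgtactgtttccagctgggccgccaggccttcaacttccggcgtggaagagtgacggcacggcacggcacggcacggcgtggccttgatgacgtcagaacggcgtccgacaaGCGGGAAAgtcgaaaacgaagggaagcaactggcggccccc
Chek1: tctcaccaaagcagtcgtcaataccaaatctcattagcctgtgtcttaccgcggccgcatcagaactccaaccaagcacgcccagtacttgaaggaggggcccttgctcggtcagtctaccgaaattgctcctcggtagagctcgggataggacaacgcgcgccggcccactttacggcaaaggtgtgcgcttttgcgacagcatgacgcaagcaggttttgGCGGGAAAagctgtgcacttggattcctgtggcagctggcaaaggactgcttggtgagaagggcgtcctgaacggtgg

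The E2F letters searched were TTTCCCGC, TTTCGCGC, TTTGCCGC and TTTGGCGC on both strands, and a gene counted when any of its promoters held one. This was so for 9 of the 38 genes (23.7%), against 2.37% of all 27457 genes with a promoter and 4.14% of 8319 tested genes with a promoter. With the annotated start counted as base 1, the match began at base 22 in Clspn, base 1 in Timeless and base 10 in Fancd2. It began 28 bases before the start in Chek1, 31 in Tipin, 20 in Ung, 205 in Bard1, 239 in Atm and 29 in Fancc. The CCAAT box (CCAAT) was in 34.2% of the 38 genes, 39.6% of all genes with a promoter and 38.6% of the tested genes. The CHR element (TTTGAA) was in 21.1% of the 38, 19.4% of all genes with a promoter and 11.6% of the tested genes. Bases of an E2F match were in none of these genes part of a CCAAT or CHR match. The MEF2 consensus was found in 0 of the 38, in 3.66% of all genes with a promoter and in 1.5% of the tested genes. Among genes that rose by at least 1 log2 in the γ+ group, 5 of 17 held the E2F letters, among smaller risers 3 of 14, and among the genes not called 0 of 5. Ddias, Brca2, Rad18, Exo1 and Brca1, which all rose more than Chek1, held no E2F match. These counts describe letters in a fixed window and say nothing of binding.

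The values are deposited log values, taken as log2, and a difference of 1 is a doubling. Identical values on pairs of arrays occurred in all 21 pairs inside 3 sets of arrays (control with 23/24, γ+, and γ-) and in 0 of 45 pairs that joined arrays of different sets, so only the 23/24 group and the control appear to share a normalization run, and in every other comparison the group and the run cannot be told apart. The second γ+ array stood apart, with deviations from its group mean of SD 0.156 over all genes against 0.0692 to 0.0990 on the other 11 arrays. It gave 7 of the 38 genes above their γ+ mean, against 33 and 26 on the other γ+ arrays. All 9 cardiomyocyte markers were measured, with control means of 10.02 to 13.49 log2, far above the cutoff of 4.78. Fibroblast, smooth muscle, endothelial and leukocyte markers were measured as well, with highest control means of 11.5, 13.52, 7.12 and 8.58 log2. All comparisons were made with limma over all 12 arrays, with Benjamini-Hochberg adjustment over the 10025 genes and an adjusted p under 0.05 as the call.

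In the γ+ cultures 33 of the 38 genes rose against untreated cultures and 0 fell. The background was that 26.2% of all genes rose and 38.7% fell. The genes were chosen with earlier results of these data known, so this and the later contrasts with all genes are descriptive. By this fit 2631 of 6509 calls among all genes were rises, and after median centring 3187 of 6228 were, while the count among the 38 stayed at 33. The rises spanned 0.28 to 2.40 log2, the median over the 38 genes was 0.94, and the median over all genes was -0.07. A rise of at least 1 log2 was found for 17 of the 38, where 3.1% of all genes rose as much. For 32 of the 38 every γ+ array lay above every control array, which held for 26.6% of all genes. For 2 of the 38, Lig3 and Ercc1, every γ+ array lay below every control array without a call, where 40% of all genes lay so. Without the second γ+ array the count was again 33, with a median of 1.0. Each of the 38 had a mean above the cutoff in every group (lowest 4.84, Rad54l in the γ- group), so none was tested only because one group was high.

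**Figure D1:**
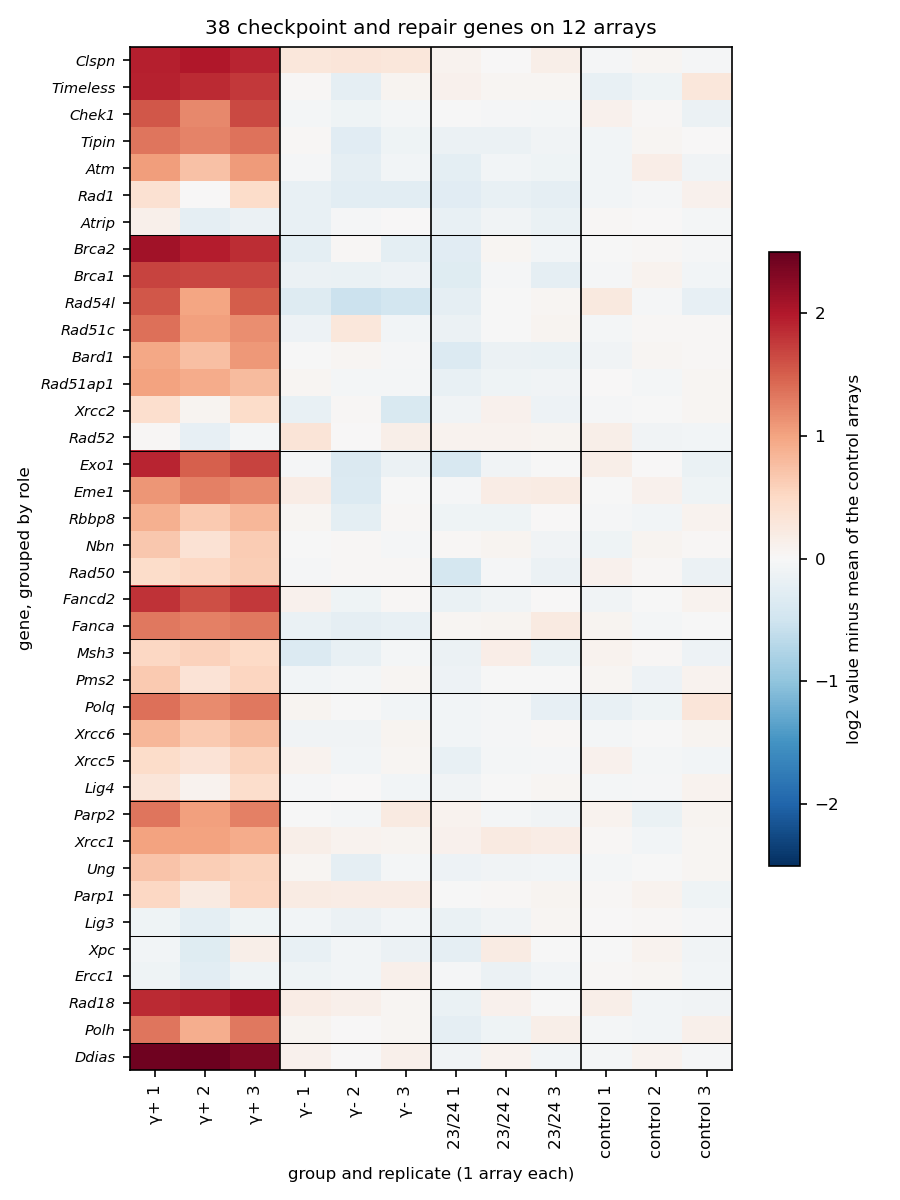
Each row is a checkpoint or repair gene and each column an array, coloured by its log2 value minus the mean of the control arrays, with genes grouped by role. The γ+ columns are raised in most rows, by up to 2.40 log2 on average for Ddias, while the γ-, 23/24 and control columns stay pale.

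The largest rise was that of Ddias, which is named for suppressing apoptosis induced by DNA damage. Its log2 values were 9.99, 10.01 and 9.90 on the γ+ arrays, against 7.51, 7.65 and 7.53 on the control arrays. The difference was 2.40 ± 0.07 (SE, n = 3 per group), a 5.29-fold rise (limma adjusted p = 6.0e-14). The γ- arrays read 7.67, 7.57 and 7.70 and the 23/24 arrays 7.47, 7.66 and 7.49, so the 3 γ+ arrays stood above the other 9, which overlapped among themselves. H2ax, the histone variant that ATM phosphorylates around breaks, is listed under its older symbol H2afx and so fell outside the 41, but the table carries it under the current name. It read 9.73, 9.84 and 9.74 on the γ+ arrays, 8.33, 8.38 and 8.32 on the γ- arrays, 7.98, 8.03 and 8.08 on the 23/24 arrays and 8.04, 8.03 and 7.95 on the control arrays. The rise in the γ+ group was 1.76 ± 0.06 (limma adjusted p = 2.0e-13), and the γ- arrays, also above all control arrays, rose by 0.34 ± 0.06 (limma adjusted p = 0.00274).

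Checkpoint signalling had 6 of 7 tested genes higher in the γ+ group, with a median of 1.31 log2. For this and each later count by role, the background was 26.2% of all genes higher and 38.7% lower. Clspn encodes claspin, the adaptor through which ATR activates CHK1. It read 7.87, 7.91 and 7.82 on the γ+ arrays, against 5.89, 5.97 and 5.89 on the control arrays. This was a rise of 1.95 ± 0.07 log2 (limma adjusted p = 4.6e-13), and the groups were far apart. The γ- arrays read 6.20, 6.21 and 6.19 and the 23/24 arrays 6.004, 5.92 and 6.07. A second, dimmer Clspn probe set rose by 1.44 in the γ+ group.

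Timeless and Tipin, whose products form a complex that travels with the fork and protects it, rose together. Timeless read 7.81, 7.75 and 7.65 on the γ+ arrays, against 5.69, 5.77 and 6.16 on the control arrays (1.86 ± 0.11, limma adjusted p = 2.8e-10). The control array at 6.16 was the highest of the other 9 and still well below all γ+ arrays. Its γ- values were 5.91, 5.65 and 5.95 and its 23/24 values 5.98, 5.92 and 5.92. Tipin rose by 1.31 ± 0.08 (limma adjusted p = 3.7e-10).

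Chek1, the effector kinase that holds S and G2 phase, read 7.65, 7.30 and 7.76 on the γ+ arrays, against 6.21, 6.13 and 5.95 on the control arrays (1.47 ± 0.10, limma adjusted p = 1.9e-09). The second γ+ array was the lowest of the 3 and still above the γ- arrays (6.05, 5.99 and 6.04), the 23/24 arrays (6.10, 6.06 and 6.05) and the control. Atm, the kinase that responds to breaks, read 7.15, 6.85 and 7.17 on the γ+ arrays, against 6.04, 6.27 and 6.02 on the control arrays (0.94 ± 0.10, limma adjusted p = 3.9e-07). Atm in the γ- group (6.08, 5.89 and 6.05) and the 23/24 group (5.86, 6.03 and 6.01) overlapped the control. Rad1, a subunit of the sliding clamp loaded at damaged DNA, had the smallest called change of the checkpoint genes (0.29 ± 0.10, limma adjusted p = 0.0198), with overlapping arrays and a call lost in 4 of 6 runs that left out an array. Atrip changed by -0.08 ± 0.09 and was not called (95% interval -0.28 to 0.12). Chek2, below the cutoff and not tested, read 5.29, 4.94 and 5.62 on the γ+ arrays, 4.24, 4.01 and 4.23 on the γ- arrays, 4.37, 4.42 and 4.38 on the 23/24 arrays and 4.34, 4.57 and 4.39 on the control arrays. Its γ+ arrays lay above all others, and its γ- arrays below all control arrays.

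**Figure D2:**
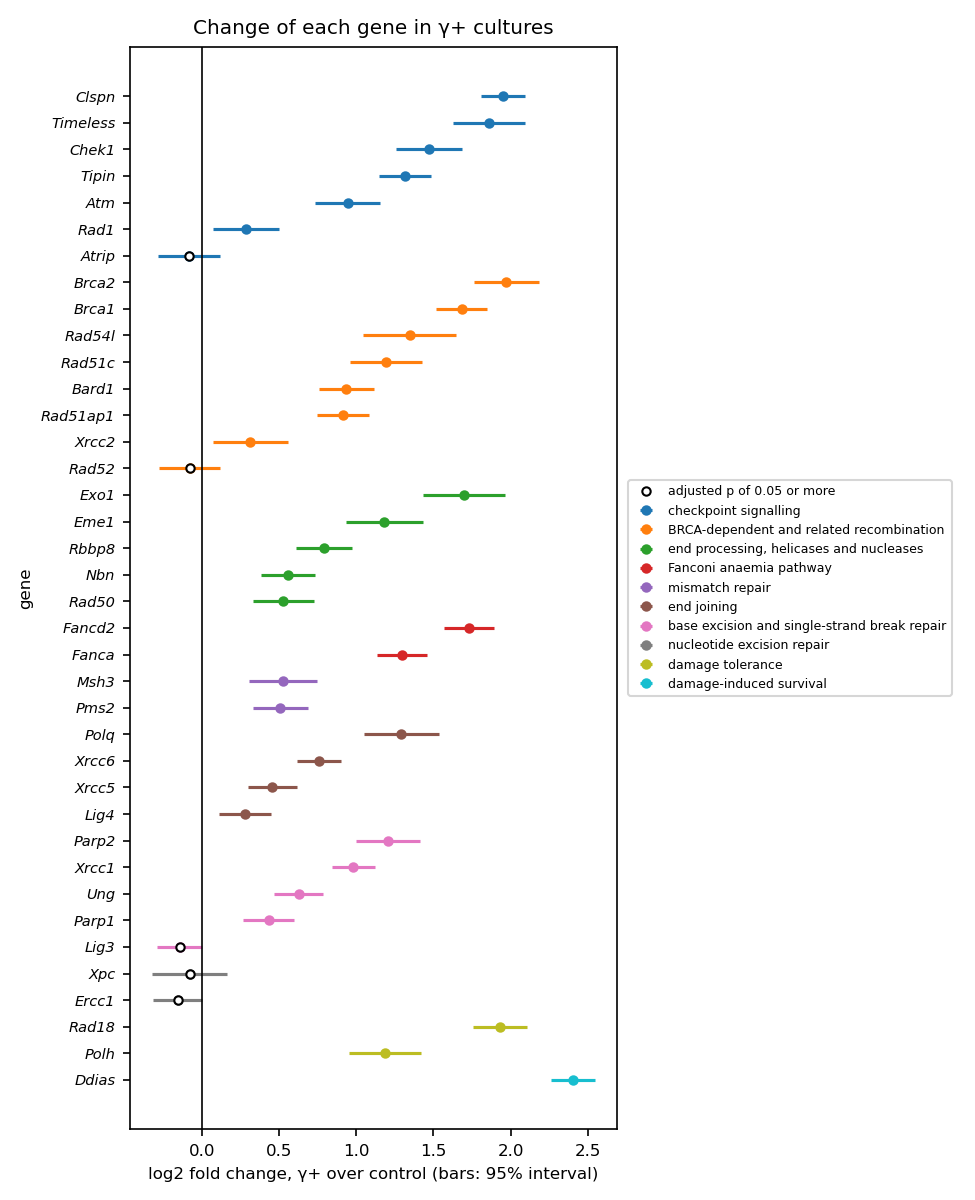
Points give the log2 fold change of each gene in the γ+ group over control with its 95% interval, coloured by role. Open points mark the 5 genes that were not called, Atrip, Rad52, Lig3, Xpc and Ercc1, all between -0.16 and -0.08, while the called genes run from 0.28 (Lig4) to 2.40 (Ddias).

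Among the genes of BRCA-dependent and related recombination 7 of 8 rose, with a median of 1.06 log2. Brca2 encodes a central mediator of this repair that acts on resected ends. Its values were 7.71, 7.58 and 7.46 in the γ+ group, against 5.60, 5.65 and 5.59 in the control (1.97 ± 0.10, a 3.92-fold rise, limma adjusted p = 4.3e-11). The γ- group read 5.37, 5.64 and 5.38 and the 23/24 group 5.34, 5.67 and 5.54, both overlapping the control and far below the γ+ arrays. Brca1, which works with BARD1 as a ubiquitin ligase and steers breaks towards recombination, was set apart as clearly. It read 7.74, 7.72 and 7.71 on the γ+ arrays, 5.90, 5.88 and 5.91 on the γ- arrays, 5.75, 6.02 and 5.82 on the 23/24 arrays and 6.01, 6.13 and 5.98 on the control arrays. The γ+ rise was 1.68 ± 0.08 (limma adjusted p = 1.4e-11), and the γ- arrays lay just below all control arrays without a call. Its partner Bard1 rose by 0.94 ± 0.08 (limma adjusted p = 6.4e-08), a smaller step on its own probe set.

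Rad54l, a motor protein that helps strand invasion of the sister duplex, read 6.82, 6.27 and 6.78 on the γ+ arrays, against 5.52, 5.24 and 5.07 on the control arrays (1.35 ± 0.14, limma adjusted p = 4.1e-07). The γ- arrays were the lowest at 4.97, 4.75 and 4.81, below every control array, although the γ- difference of -0.44 ± 0.14 was not called (limma adjusted p = 0.0767). It was called with array weights (limma adjusted p = 0.00403) and with the 6 arrays fitted alone (limma adjusted p = 0.0327). The 23/24 arrays read 5.06, 5.28 and 5.32. Rad51ap1, which stimulates strand invasion, read 6.65, 6.58 and 6.44 on the γ+ arrays, against 5.66, 5.59 and 5.69 on the control arrays (0.91 ± 0.08, limma adjusted p = 3.4e-08). Its γ- values (5.70, 5.60 and 5.59) and 23/24 values (5.46, 5.55 and 5.56) lay close to the control, those of the 23/24 group just below it. The recombination gene Rad51c rose by 1.19 ± 0.11 and its relative Xrcc2 by 0.31 ± 0.12 (limma adjusted p = 7.8e-08 and 0.0256), and Xrcc2 lost its call in 4 of 6 runs that left out an array. Rad52, which anneals single strands in a separate route, changed by -0.08 ± 0.09 and was not called (95% interval -0.28 to 0.12). Palb2, the bridge between BRCA1 and BRCA2, was below the cutoff and not tested. It read 5.27, 5.28 and 5.15 in the γ+ group, against 4.11, 4.43 and 4.07 in the control. The γ- arrays read 4.18, 3.62 and 4.13, and the 23/24 arrays 3.58, 3.84 and 3.54, the latter all below the control arrays.

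All 5 tested genes of end processing rose. Exo1, the exonuclease of long-range resection, read 7.53, 7.12 and 7.31 on the γ+ arrays, against 5.77, 5.64 and 5.47 on the control arrays (1.70 ± 0.13, limma adjusted p = 5.0e-09). The other groups overlapped the control, at 5.60, 5.26 and 5.48 in the γ- group and 5.23, 5.54 and 5.61 in the 23/24 group. Eme1, the partner of the MUS81 nuclease that cuts joined molecules, rose by 1.18 ± 0.12, and Rbbp8, the CtIP protein that starts resection, by 0.79 ± 0.09 (limma adjusted p = 1.8e-07 and 5.0e-07). Rad50 and Nbn, which with MRE11 form the complex that binds broken ends, rose by 0.53 ± 0.09 and 0.56 ± 0.08 (limma adjusted p = 1.2e-04 and 1.7e-05). Mre11, listed under its older symbol Mre11a and so outside the 41, rose by 0.37 ± 0.10 (limma adjusted p = 0.00286). The 3 subunits of the complex thus had rises of 0.37 to 0.56.

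Both tested Fanconi anaemia genes rose. Fancd2, the effector that the core complex ubiquitylates, read 8.97, 8.77 and 8.93 on the γ+ arrays, against 7.08, 7.16 and 7.24 on the control arrays (1.73 ± 0.08, limma adjusted p = 8.5e-12). It was 7.27, 7.05 and 7.19 in the γ- group and 7.01, 7.08 and 7.17 in the 23/24 group, both overlapping the control. Fanca, a core complex subunit, read 6.93, 6.86 and 6.93 in the γ+ group, against 5.68, 5.55 and 5.59 in the control (1.30 ± 0.08, limma adjusted p = 2.4e-10). Fancc, another core subunit, was below the cutoff and read 5.39, 5.11 and 5.41 in the γ+ group, against 4.72, 4.62 and 4.54 in the control. The mismatch repair genes Msh3 and Pms2, whose proteins recognise and process loops and mispairs, rose by 0.53 ± 0.10 and 0.51 ± 0.08 (limma adjusted p = 3.0e-04 and 6.4e-05).

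**Figure D3:**
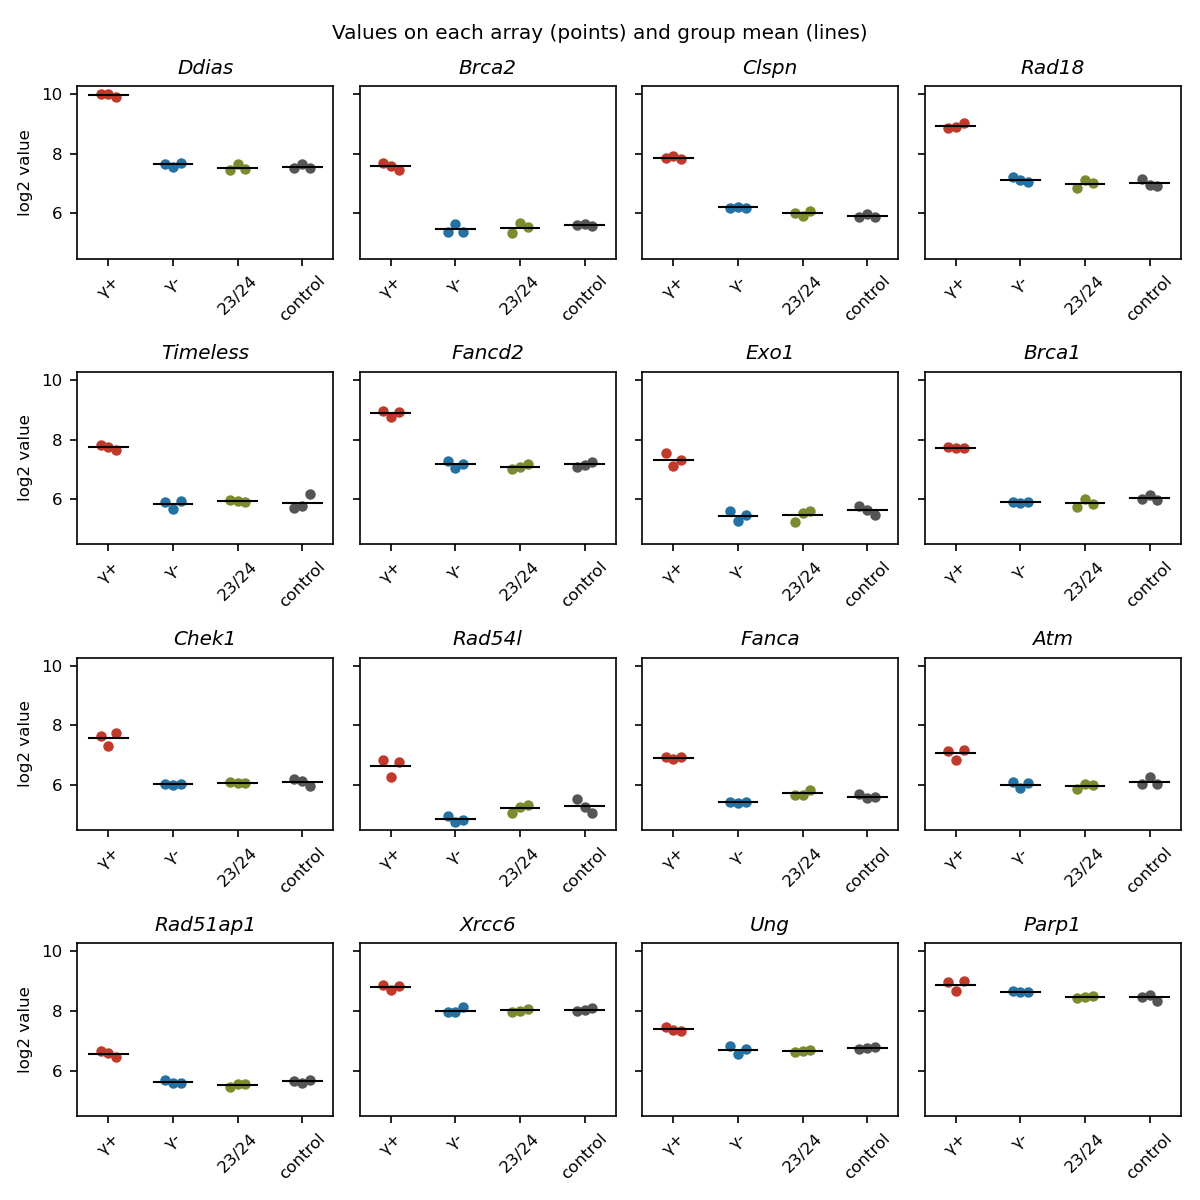
Points are the log2 values of single arrays for 16 named genes and lines are group means, with the γ+, γ-, 23/24 and control groups from left to right. The γ+ points lie above all other points in each panel, from Ddias at about 10 log2 to the narrow gap of Parp1, where the lowest γ+ array (8.68) is just above the highest γ- array (8.66).

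End joining genes rose in 4 of 4 cases with a wide range. Polq, the polymerase of the back-up route that uses short homologies, rose by 1.29 ± 0.11 (limma adjusted p = 4.7e-08). Xrcc6, the Ku70 subunit of the Ku ring that caps broken ends, read 8.88, 8.70 and 8.84 on the γ+ arrays, against 7.99, 8.04 and 8.12 on the control arrays (0.76 ± 0.07, limma adjusted p = 4.3e-08). Its γ- arrays (7.96, 7.96 and 8.12) and 23/24 arrays (7.98, 8.02 and 8.08) overlapped the control. Xrcc5, the Ku80 subunit, rose by 0.46 ± 0.08 and Lig4, the ligase that closes the break, by 0.28 ± 0.08 (limma adjusted p = 6.1e-05 and 0.00619).

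Base excision and single-strand break repair had 4 of 5 genes higher. Ung, which removes uracil from DNA, read 7.48, 7.37 and 7.33 on the γ+ arrays, against 6.72, 6.76 and 6.81 on the control arrays (0.63 ± 0.07, limma adjusted p = 1.6e-06). The γ- arrays read 6.82, 6.54 and 6.72 and the 23/24 arrays 6.64, 6.67 and 6.70, the 23/24 arrays just below all control arrays without a call. Parp1, the sensor that marks nicks with ADP-ribose chains, read 8.98, 8.68 and 9.001 on the γ+ arrays, 8.66, 8.64 and 8.65 on the γ- arrays, 8.45, 8.49 and 8.52 on the 23/24 arrays and 8.48, 8.55 and 8.34 on the control arrays. It rose by 0.43 ± 0.08 against control (limma adjusted p = 1.3e-04), while the related Parp2 rose by 1.21 ± 0.10 (limma adjusted p = 1.8e-08). Xrcc1, the scaffold of nick repair, rose by 0.98 ± 0.07 (limma adjusted p = 1.4e-09). Its partner ligase Lig3 changed by -0.14 ± 0.07 (limma adjusted p = 0.0774) and was not called, though its γ+ arrays (7.37, 7.24 and 7.37) all lay below its control arrays (7.47, 7.49 and 7.44).

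Of the 2 listed nucleotide excision repair genes 0 were called. Xpc, which finds distorted DNA across the genome, changed by -0.08 ± 0.11 (95% interval -0.32 to 0.16), and Ercc1, a subunit of the nuclease that cuts beside the lesion, by -0.16 ± 0.08 (95% interval -0.32 to 0.00, limma adjusted p = 0.0766). The Ercc1 arrays nevertheless did not overlap, at 7.48, 7.31 and 7.49 in the γ+ group and 7.61, 7.62 and 7.51 in the control. Outside the list, genes of this pathway called higher included Gtf2h4 (0.67), Ercc6 (0.47), Ercc8 (0.30), and Gtf2h1 and Gtf2h3 (both 0.19). Uvssa (-0.31) was called lower. The 2 listed genes thus do not stand for the whole pathway. Both damage tolerance genes rose. Rad18, the ligase that tags the sliding clamp PCNA at stalled forks, read 8.87, 8.91 and 9.04 on the γ+ arrays, 7.21, 7.13 and 7.07 on the γ- arrays, 6.84, 7.12 and 7.01 on the 23/24 arrays and 7.15, 6.95 and 6.93 on the control arrays (1.93 ± 0.08, limma adjusted p = 6.3e-12). Polh, the polymerase that copies past ultraviolet lesions, rose by 1.19 ± 0.11 (limma adjusted p = 8.0e-08). The 5 genes that were not called had 95% intervals all within -0.32 to 0.16.

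Pathway genes outside the list were also mostly higher or uncalled, with 65 of 102 tested genes higher and 6 lower in the γ+ group and a median of 0.43. Of all genes 26.2% were higher and 38.7% lower there. Among 26 recombination and Fanconi genes 17 rose, and those of lowest adjusted p were Usp1 (1.19), which deubiquitylates FANCD2, Tonsl (1.53) and its partner Mms22l (1.37), and Parpbp (1.49), a restrainer of recombination. Fignl1 (-0.81), Babam2 (-0.58) and Mus81 (-0.23) fell, the last a call lost under median centring. Among 20 other checkpoint genes 16 rose and 0 fell, and those of lowest adjusted p were Paxip1 (1.15), the phosphatase Ppm1d (1.56), which switches the checkpoint off, the cohesin subunit Smc3 (0.95) and Mdm2 (1.19), the ligase for p53. Among 56 excision, mismatch, end-joining and tolerance genes 32 rose, and those of lowest adjusted p were the replicative factors Pole (1.62), Pcna (1.41) and Lig1 (1.21) and the bypass polymerase Polk (1.29). Alkbh3 (-0.62), Parp3 (-0.76) and Uvssa (-0.31) fell, the last a call lost under both rescalings. In these 18 genes the limma adjusted p ran from 3.9e-12 (Pole) to 0.0203 (Mus81).

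Cell cycle genes rose with them: 28 of 31 DNA replication genes were higher and 1 lower, with a median of 1.27. Of the mitosis genes 21 of 21 were higher, with a median of 1.33. The shares over all genes were 26.2% higher and 38.7% lower. Most cell type markers fell at the same time. The summed linear signal of the 9 cardiomyocyte markers was 22660 to 24267 on the γ+ arrays, against 44933 to 46807 on the control arrays, and all 9 fell. That of 8 fibroblast markers was 3099 to 3346 on γ+ arrays, against 8956 to 9154 on control arrays. For 5 smooth muscle markers it was 10640 to 11165 on γ+ arrays, against 17224 to 17565 on control arrays, and for 6 endothelial markers 296 to 324 on γ+ arrays, against 547 to 561 on control arrays. All members of these 3 lists fell. Of 5 leukocyte markers 3 fell, with sums of 405 to 443 on γ+ arrays, against 613 to 624 on control arrays. The part of these changes in the rise of the repair genes was not tested, and in bulk RNA a change in the share of cells of a type cannot be told apart from a change in RNA per cell.

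The γ- form was then set against control. Here 1 of the 38 genes rose and 0 fell, where 3.06% of all genes rose and 3.88% fell. That background of 696 calls was unsteady: it was 267 to 343 when 1 array was left out and 1745 with array weights. The gene was Clspn, at 0.29 ± 0.07 log2 (limma adjusted p = 0.0196), with all 3 γ- arrays (6.20, 6.21 and 6.19) above all 3 control arrays (5.89, 5.97 and 5.89). The call rested on 1 of its 2 probe sets: the dimmer one changed by -0.01 (limma adjusted p = 0.978), though in the γ+ group both rose, and the call was lost when the probe sets were averaged and in 5 of 6 runs that left out an array. The 37 genes not called ran from -0.44 (Rad54l) to 0.19 (Parp1), with 95% intervals all within -0.74 to 0.36, and the median over the 38 was -0.03.

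In the 23/24 group 0 of the 38 genes were called against control by limma, and 0 of all genes (0%), in the one comparison within a normalization run. With array weights 220 of all genes were called there, and again 0 of the 38. At an unadjusted p under 0.05, 5 of the 38 differed (1 higher, 4 lower), where 8.97% of all genes did. The differences ran from -0.23 (Rad1) to 0.18 (Xrcc1), with 95% intervals between -0.44 and 0.37 and a median of -0.05.

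The splice forms were compared directly. Against the γ- group, 33 of the 38 genes were higher in the γ+ group and 1 lower, where 26.7% of all genes were higher and 37.5% lower, and the median was 0.93. The difference reached 1 log2 upwards in 18 of the 38, where 2.94% of all genes did so. Ddias was higher by 2.32 ± 0.07, Brca2 by 2.12 ± 0.10 and Timeless by 1.90 ± 0.11 (limma adjusted p = 1.2e-13, 2.0e-11 and 2.3e-10). Clspn, by 1.66 ± 0.07, and H2ax, by 1.43 ± 0.06, were also higher. Rad52 was the one gene lower (6.22, 5.98 and 6.15 on the γ+ arrays, against 6.52, 6.21 and 6.34 on the γ- arrays; -0.24 ± 0.09, limma adjusted p = 0.0316), a call that was lost under median centring and quantile normalization, with the 6 arrays fitted alone and in 3 of 6 runs that left out an array (the second γ+ and the first and last γ- arrays). Parp1 was higher by 0.24 ± 0.08 (limma adjusted p = 0.0128), a call lost without the first or the last γ+ array.

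**Figure D4:**
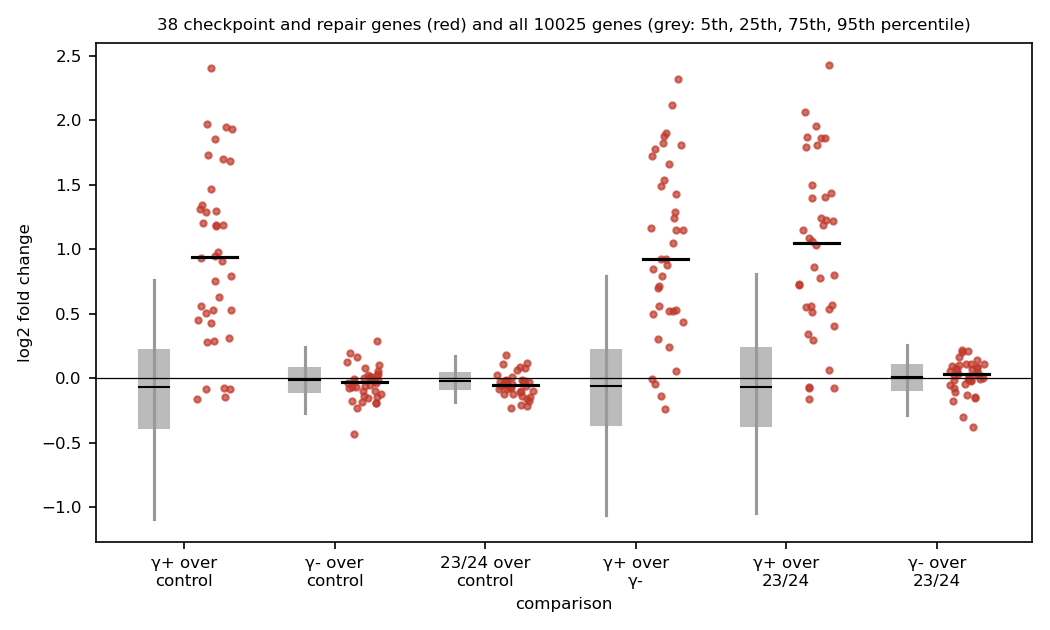
For each of 6 comparisons, red points are the log2 fold changes of the 38 genes with their median as a line, and grey boxes with whiskers mark the percentiles over all 10025 genes named in the title. The medians of the 38 genes are 0.94, 0.93 and 1.05 where the γ+ group is compared with control, γ- and 23/24 cultures, and between -0.05 and 0.03 in the other comparisons, and the γ+ comparisons share the same γ+ arrays.

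Against the 23/24 group, 33 of the 38 genes were higher in the γ+ group and 0 lower, where 28% of all genes were higher and 37.9% lower, and the median was 1.05. It reached 1 log2 upwards in 20 of the 38, where 3.32% of all genes did so. Ddias was higher by 2.43 ± 0.07, Brca2 by 2.07 ± 0.10 and Rad18 by 1.95 ± 0.08 (limma adjusted p = 5.5e-14, 2.5e-11 and 6.0e-12). The γ- group was lower than the 23/24 group in 1 of the 38 genes and higher in 0, where 3.94% of all genes were lower and 4.16% higher. These 812 calls were 263 to 529 when 1 array was left out and 2528 with array weights. That gene was Fanca, at 5.44, 5.39 and 5.42 on the γ- arrays, against 5.66, 5.67 and 5.83 on the 23/24 arrays (-0.30 ± 0.08, limma adjusted p = 0.023), a call that was lost under median centring, quantile normalization and in 5 of 6 runs that left out an array. H2ax was higher in the γ- group by 0.31 ± 0.06 (limma adjusted p = 0.00393).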

How the data were processed

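RNA of 12 cultures was hybridised to 1 Affymetrix array each. The deposited table gives 1 log2 value per probe set and array, made by the authors with MAS5, per the submitters' processing notes; no source used here states its version, how arrays were normalized or the log base, which was taken as 2 from the range (1.09 to 13.89).

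Of 28826 probe sets, 15209 carried 1 gene symbol, 306 several and 13311 none. Probe sets above the 40th percentile of the mean over the 12 arrays were kept, and the brightest single-gene probe set stood for each gene. Groups were compared with limma 3.58.1 in R 4.3.3 (lmFit, eBayes with trend, 8 residual degrees of freedom), tested on simulated data, with Benjamini-Hochberg adjustment over 10025 genes. No probe set was tested against another, and the changes of the Clspn probe sets are only given side by side. The number of arrays limits the precision.

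Arrays with the same replicate number did not deviate together (correlations of -0.22 to 0.12, above 0.1 in 1 of 18 pairs). No pairing by number was thus seen, but these values cannot exclude shared isolations. Alternatives were median centring, quantile normalization, other filters, averaged probe sets, no trend, array weights, a replicate block, the 6 arrays alone, single arrays left out, and a minimum of 1 log2.

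The genes, the lists and the naming rule were chosen with earlier results of these data known. Values on every array are given for the 10 largest risers, genes called between the other groups, and key genes (Brca1, Brca2, Atm, Chek1, Chek2, Fancd2, Rad51ap1, H2afx, Parp1, Xrcc6, Ung). From the other lists up to 4 genes of lowest adjusted p and the exceptions are named, with some nucleotide excision genes beside Xpc and Ercc1.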

Additional observations from a re-analysis of the deposited data

How the results depend on the processing

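The 33 genes higher in the γ+ group against control were again 33 under median centring, quantile normalization, the replicate block and array weights, and 31 of the 33 were called under every alternative apart from the 1 log2 minimum, wherever they were tested. With the replicate block, 33 genes were higher in the γ+ group against each of control, γ- and 23/24. No count of the 38 genes moved there. The labels do not say what same-numbered arrays share. Without a filter 36 of 41 rose, where 2908 of 14497 genes did. With a filter at the 60th percentile 22 of 26 rose and 0 fell. All 22 calls were thus rises, against 2176 of 5160 calls among all genes. This cutoff (6.16 log2) was set on the mean over all 12 arrays. Genes such as Brca1 (control mean 6.04) and Chek1 (control mean 6.10) passed it only through their γ+ values, so that count is no independent check.

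Leaving out 1 array gave 31 to 33 genes higher in the γ+ group against control, 32 to 33 against γ- and 32 to 33 against 23/24. It gave 0 to 1 lower against γ-, 0 to 1 higher in the γ- group against control, and 0 to 1 lower in the γ- group against 23/24. With the minimum of 1 log2, 17, 18 and 20 genes were higher in the γ+ group against control, γ- and 23/24, and 0 remained called in the other comparisons or as lower.

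The gene lower in γ+ against γ- was lost (0) under median centring, quantile normalization and the 6 arrays alone. For γ- against control, 0 genes were higher with averaged probe sets or with the dimmer Clspn probe set, an alternative chosen after seeing the data, where Clspn reversed to -0.0075. Array weights and the 6 arrays alone each gave 2 higher (Clspn and Parp1) and 1 lower (Rad54l) there. For γ- against 23/24, 1 gene was higher under median centring, quantile normalization and without the trend, 3 under array weights and 2 with the 6 arrays alone. Under the 60th percentile filter 0 were lower there, as Fanca was too dim to be tested. Lower there were also 0 under both rescalings, 3 under array weights and 2 with the 6 arrays alone. The cause was not tested.

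Median centring moved the median of all genes in γ+ against 23/24 to 0.07, against -0.07 as deposited, and that of the 38 genes to 1.19 against 1.05. Rises were then 3703 of 6331 calls among all genes, against 2804 of 6599 as deposited, and in γ- against 23/24 698 of 896, against 417 of 812. With 3 arrays a group, the small differences of the γ- group are near the limit of what could be called. In the 23/24 group against control the lowest limma adjusted p among the 38 genes was 0.46.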
